A study of Mus musculus with 6 samples.

Results

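The 10 genes described here belong to the TNF superfamily and its receptors. The 6 ligand genes were *Tnf*, *Tnfsf9*, *Tnfsf10*, *Tnfsf12*, *Tnfsf13b* and *Ltb*, and the 4 receptor genes were *Tnfrsf1a*, *Tnfrsf1b*, *Tnfrsf14* and *Fas*. They were taken by gene name from an expression table of 22248 genes, and each name was found once. RNA came from resting, unstimulated bone-marrow-derived macrophages (BMDMs), which were grown from mouse marrow cells in medium with the growth factor M-CSF. The control mice were *Lyz2cre* and the CITED2-deficient mice were *Cited2 fl/fl:Lyz2cre*, with 3 libraries in each group and C57BL/6 as the strain of both. Both groups carried Cre at *Lyz2*, a gene of myeloid cells, and the CITED2-deficient mice also had floxed *Cited2* on both alleles, so the deletion was limited to cells that had expressed *Lyz2*. The labels give postnatal week 10 for all samples, whereas the methods of the study name a younger age for the marrow donors. The comparison asks which genes change in unstimulated macrophages when CITED2, a transcriptional coregulator, is missing.

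TNF superfamily ligands are mostly made as membrane proteins that act as trimers, and some are cut from the surface to act at a distance. Their receptors have no enzyme activity of their own. They recruit TRAF adaptors, which lead to NF-κB and MAP kinase signaling, or death domain adaptors, which can lead to caspase-8 and cell death. Macrophages are a main source of TNF, and they also respond to it through the receptors TNFR1 (*Tnfrsf1a*) and TNFR2 (*Tnfrsf1b*).

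The stretches of DNA just upstream of 4 of these genes are shown because *Tnf*, *Tnfsf10* and *Tnfrsf1b* were the 3 members that rose and *Fas* was the member that fell most. RefSeq promoter windows of GRCm38.p6 were at hand for 8 of the 10 members, without *Tnfsf9* and *Tnfsf12*. Each sequence is written 5′ to 3′ on the strand of its gene and ends before the annotated gene. Capitals mark matches to any of 4 motifs, searched on both strands, namely the NF-κB type motif (GGGA, any base, TT, any base, CC), the interferon-stimulated response element type (GAAA and GAAA with any 2 bases between), the STAT type (TTCNNNGAA) and the TATA box (TATAAA).
*Tnf*, chr17:35202008-35202257, minus strand: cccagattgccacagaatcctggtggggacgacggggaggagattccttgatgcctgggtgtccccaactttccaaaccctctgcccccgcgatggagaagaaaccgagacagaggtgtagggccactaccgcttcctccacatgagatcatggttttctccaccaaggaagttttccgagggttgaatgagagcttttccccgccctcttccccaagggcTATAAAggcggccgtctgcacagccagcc
*Tnfsf10*, chr3:27316827-27317027, plus strand: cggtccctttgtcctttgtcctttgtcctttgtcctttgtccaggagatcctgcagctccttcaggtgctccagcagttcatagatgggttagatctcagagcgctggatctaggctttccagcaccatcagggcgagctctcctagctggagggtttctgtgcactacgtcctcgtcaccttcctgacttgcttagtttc
*Tnfrsf1b*, chr4:145246871-145247120, minus strand: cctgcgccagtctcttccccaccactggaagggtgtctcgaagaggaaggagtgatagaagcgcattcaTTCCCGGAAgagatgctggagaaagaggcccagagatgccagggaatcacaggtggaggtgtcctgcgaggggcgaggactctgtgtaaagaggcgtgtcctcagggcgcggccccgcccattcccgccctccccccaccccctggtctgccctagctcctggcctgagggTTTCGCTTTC
*Fas*, chr19:34290409-34290658, plus strand: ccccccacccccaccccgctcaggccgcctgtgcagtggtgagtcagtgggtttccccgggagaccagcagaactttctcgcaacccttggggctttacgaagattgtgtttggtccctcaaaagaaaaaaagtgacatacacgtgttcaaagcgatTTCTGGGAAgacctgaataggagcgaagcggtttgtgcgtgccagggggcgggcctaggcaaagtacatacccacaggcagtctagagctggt
The *Tnf* window held TATAAA at -29 to -24 from the start, and TATAAA was in 12.4% of 32851 mouse windows of 250 bases. The *Tnfrsf1b* window held TTTCGCTTTC at -10 to -1, which matches the interferon-stimulated response element type on the opposite strand, and TTCCCGGAA at -181 to -173. The interferon-stimulated response element type was in 2.98% of all windows and TTCNNNGAA in 7.02%. TTCNNNGAA was also in the *Fas* window, as TTCTGGGAA at -93 to -85, and in that of *Tnfrsf1a*, as TTCCGTGAA at -244 to -236. The full *Tnfsf10* window held none of the 4 motifs. The *Ltb* window held GGAAAGTCCC at -87 to -78, an NF-κB type match on the opposite strand, and TTCAGAGAA at -172 to -164. The NF-κB type motif was in 0.980% of all windows. Further matches of the interferon-stimulated response element type were TTTCATTTTC at -64 to -55 of *Tnfrsf14* and GAAAGTGAAA at -16 to -7 of a second start of *Tnfsf13b*. The *Tnfrsf1a* and *Tnfrsf14* windows and this *Tnfsf13b* match lie inside the annotated genes, not upstream of them. These matches are letters in a window and no binding was measured.

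Values are FPKM (fragments scaled by transcript length and library size). The lengths that gave whole fragments for most genes were means over the annotated transcripts of a gene, not lengths of the transcripts expressed. Comparisons of level between genes depend on these lengths, while comparisons of 1 gene between libraries do not. Library depth recovered from the values was 17289286 to 18952077 fragments in control and 22583995 to 26100410 in CITED2-deficient BMDMs. *Cited2* itself measured 71.7, 79.3 and 75.5 FPKM in control BMDMs and 9.27, 7.22 and 7.53 in CITED2-deficient BMDMs, a log2 fold change of -3.09 (SE 0.08, limma adjusted p = 6.57e-09). The macrophage markers *Adgre1*, *Csf1r* and *Cd68* were abundant in every library, and the 7 macrophage markers summed to 5319 to 5375 FPKM in control and 4951 to 5050 in CITED2-deficient BMDMs, with 5 of the 7 lower and 1, *Fcgr1*, higher. *Lyz2*, which carries Cre, fell from 31.3 ± 1.03 to 9.75 ± 0.333 FPKM (mean ± SD, n = 3, limma adjusted p = 2.33e-08). The 8 fibroblast or stromal markers summed to 42.4 to 50.6 FPKM in control and 170 to 540 in CITED2-deficient BMDMs, highest in CITED2-deficient replicate 1, and 6 of 6 tested markers were higher. Among these, *Pdgfrb* averaged 0.936 FPKM in control and 2.45 in CITED2-deficient BMDMs, so it reached a mean of 1 FPKM only through the latter. *Lum* and *Thy1* were too low to be tested, and *Lum* was lower on average (0.162 and 0.0998 FPKM) with overlapping groups. Neutrophil markers summed to 499 to 543 and 382 to 472 FPKM, with 4 of 5 tested markers lower. Of all tested genes, 16.7% were higher and 34.6% lower at an adjusted p under 0.05 (limma). B cell markers summed to at most 3.29 FPKM in any library, T cell markers to at most 8.03, which was mostly *Cd4*, NK cell markers to at most 0.786, dendritic cell markers to at most 1.42 and mast cell markers to at most 1.49. In such bulk samples, fewer cells of a type and less RNA per cell cannot be told apart, and the part of other cell types in the results below was not tested except where values are given. The labels number 3 libraries per genotype and do not tie each one to an animal, so p-values measure the spread between these libraries.

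Genes with a mean of at least 1 FPKM over the 6 libraries were tested with limma on log2(FPKM + 1), and an adjusted p under 0.05 was the threshold. Of the 10 members, 9 passed that filter and *Ltb* did not. *Tnf*, *Tnfsf10* and *Tnfrsf1b* were higher in CITED2-deficient BMDMs, *Tnfsf12*, *Tnfrsf1a* and *Fas* were lower, and *Tnfsf9*, *Tnfsf13b* and *Tnfrsf14* did not pass the threshold. These 6 calls among 9 members stand beside 51.3% called of all 11687 tested genes, 16.7% higher and 34.6% lower. *Tnfsf10*, counted here and below, averaged 0.945 FPKM in control and 4.67 in CITED2-deficient BMDMs. It therefore passed the filter only through the group in which it was high. The median log2 fold change was -0.17 over the 9 members and -0.10 over all tested genes. The values of the 2 groups did not overlap for 6 of the 9 tested members, against 59.9% of all tested genes (19.0% higher and 40.9% lower). The balance of directions depended on scaling. After median-ratio scaling the calls among all genes went from 32.5% higher to 52.0% higher, with 44.4% called (23.1% higher and 21.3% lower). The 3 members that rose still rose, whereas of the 3 that fell only *Tnfrsf1a* passed the threshold, and all 3 kept a negative value.

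**Figure D1:**
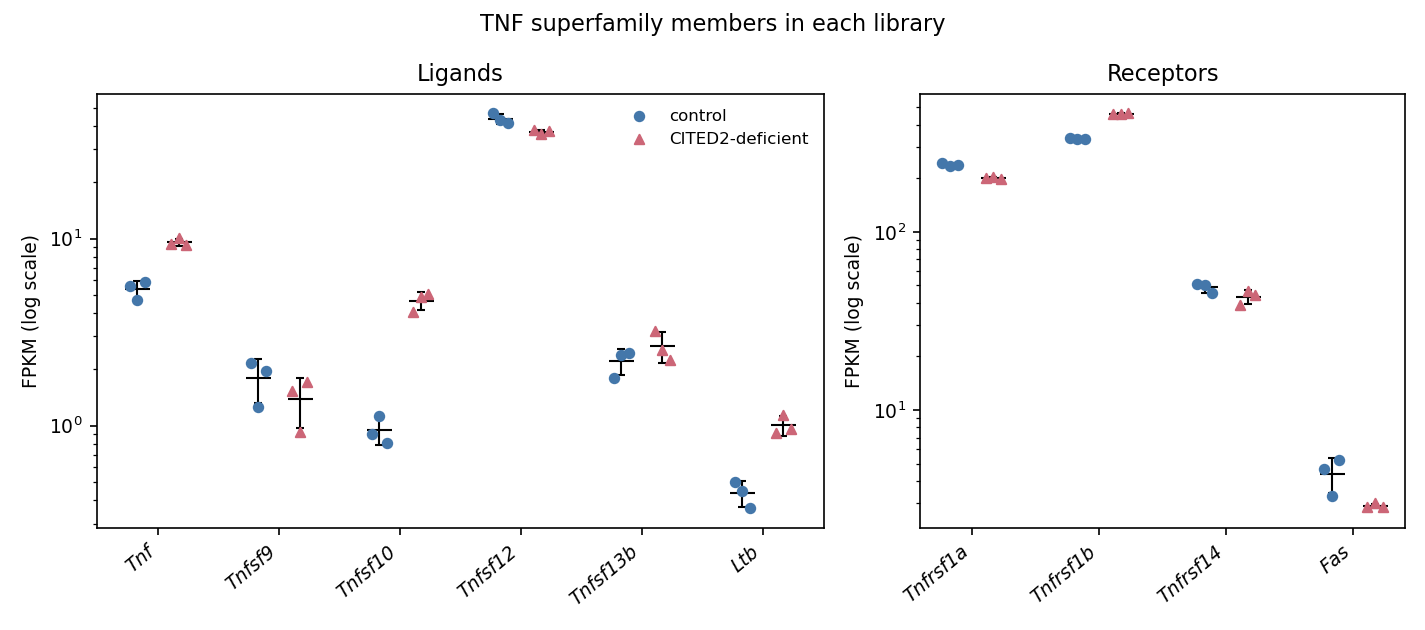
FPKM of the 6 ligand genes (left) and the 4 receptor genes (right) on a log scale, with circles for the 3 control libraries, triangles for the 3 CITED2-deficient libraries, and the mean ± SD as black bars. *Tnfsf10*, *Tnf*, *Tnfrsf1b* and the low *Ltb* lay higher in every CITED2-deficient library than in any control library, and the 2 TNF receptors moved apart.

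By FPKM, the TNF receptors were the most abundant members in control BMDMs. *Tnfrsf1b* came first at 334 FPKM and *Tnfrsf1a* followed at 237, ahead of *Tnfrsf14* at 48.7 and *Tnfsf12* at 43.8, whose ranges over libraries overlapped. *Tnf* at 5.37 and *Fas* at 4.39 overlapped each other, as did *Tnfsf13b* at 2.22 and *Tnfsf9* at 1.80, and *Tnfsf10* at 0.945 and *Ltb* at 0.438 came last. In CITED2-deficient BMDMs the first 5 kept this order and *Tnfsf10* stood above *Fas*, *Tnfsf13b* and *Tnfsf9*. Here *Fas* and *Tnfsf13b* overlapped, and so did *Tnfsf9* and *Ltb*.

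*Tnf* encodes the founding ligand of the family and lies on the minus strand of chromosome 17 at 35199381 to 35202007 (mm10, as are all positions here). It measured 5.56, 4.70 and 5.86 FPKM in control BMDMs and 9.42, 10.0 and 9.27 in CITED2-deficient BMDMs. Every CITED2-deficient library was above every control library. *Tnf* rose from 5.37 ± 0.600 to 9.57 ± 0.401 FPKM (SD, n = 3), a log2 fold change of 0.73 (SE 0.09, limma adjusted p = 0.000111). The values rest on 126 to 172 fragments per control library and 351 to 375 per CITED2-deficient library. The change stayed between 0.66 and 0.83 over all alternatives.

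*Tnfsf10* encodes TRAIL, a ligand of death receptors, and lies on the plus strand of chromosome 3 at 27317028 to 27342427. It measured 0.902, 1.12 and 0.811 FPKM in control BMDMs and 4.07, 4.89 and 5.05 in CITED2-deficient BMDMs. The groups were far apart, and the gene passed the filter on low values only through the CITED2-deficient group. Its mean FPKM was 4.94 times that of the control, the largest rise among the members. The log2 fold change on the log2(FPKM + 1) scale was 1.54 (SE 0.12, limma adjusted p = 8.07e-06), and the pseudocount of 1 compresses it. On recovered fragments, 46 to 58 per control library and 309 to 394 per CITED2-deficient library, limma-voom gave 2.30. *Tnfsf10* stood at rank 174 of the 11687 tested genes by log2 fold change. The tested genes with the profile nearest to it over the 6 libraries were *H2-Q4*, an MHC class I gene, at a Euclidean distance of 0.16, *Cd274*, which encodes PD-L1, at 0.16, and *4930430E12Rik* at 0.16. These 3 had log2 fold changes of 1.504, 1.521 and 1.558, which lie near that of *Tnfsf10* because the genes were chosen by profile.

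*Ltb* encodes lymphotoxin β, which forms a membrane trimer with lymphotoxin α. Its gene lies on the plus strand of chromosome 17 at 35194439 to 35196320, 3060 bases from *Tnf*, and *Lta* follows *Tnf* after 1157 bases. *Ltb* measured 0.502, 0.449 and 0.364 FPKM in control BMDMs and 0.916, 1.15 and 0.958 in CITED2-deficient BMDMs, which are 8 to 11 and 27 to 30 fragments per library. The groups did not overlap, but the gene was below the filter and has no call in the comparison above. Without the filter its log2 fold change was 0.48 (limma adjusted p = 0.00789, with 26.2% of 22248 genes called, 9.9% higher and 16.3% lower), and limma-voom on genes with at least 10 fragments, added after the data were seen, gave 1.15 (adjusted p = 0.0293, with 39.0% of 17475 genes called, 25.0% lower and the rest higher). *Lta* was listed at 0, 0.293 and 0.0382 FPKM in control and 0.114, 0.0960 and 0.0831 in CITED2-deficient BMDMs, at most 7 fragments in any library. The 3 neighbors held different levels, with *Tnf* highest in every library.

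*Tnfsf12* encodes TWEAK, the ligand of the receptor FN14. It was the most abundant ligand, with 46.9, 43.1 and 41.5 FPKM in control and 37.9, 36.3 and 37.6 in CITED2-deficient BMDMs. The groups did not overlap. *Tnfsf12* fell by 0.23 on the log2 scale (SE 0.05, limma adjusted p = 0.00467), and after median-ratio scaling the change was -0.13 with adjusted p = 0.0631. The gene, on the minus strand of chromosome 11 at 69686250 to 69695849, lies wholly inside the readthrough gene *Tnfsfm13* of the same strand and shares 4892 bases with *Tnfsf13os* on the other strand. *Tnfsfm13* measured 3.32 ± 0.200 and 2.50 ± 0.325 FPKM and *Tnfsf13os* 6.17 ± 0.255 and 8.53 ± 0.760 (SD, n = 3). Fragments from the shared bases could be divided among these genes, so the level of *Tnfsf12* is uncertain to that extent.

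*Tnfsf13b* encodes BAFF, a survival factor of B cells that myeloid cells supply, on the plus strand of chromosome 8 at 10006467 to 10039072. It measured 1.80, 2.40 and 2.45 FPKM in control and 3.21, 2.54 and 2.25 in CITED2-deficient BMDMs. The groups overlapped, and the log2 fold change of 0.19 (95% interval -0.13 to 0.50, limma adjusted p = 0.288) did not pass the threshold. *Tnfsf9* encodes the ligand of a costimulatory receptor of T cells, on the plus strand of chromosome 17 at 57105325 to 57107757. It measured 2.17, 1.26 and 1.96 FPKM in control and 1.53, 0.927 and 1.72 in CITED2-deficient BMDMs, and again the groups overlapped. Its log2 fold change of -0.23 had a 95% interval of -0.64 to 0.19 (limma adjusted p = 0.327). The values rest on 27 to 58 fragments per library, and 618 bases of the gene are shared with *Gm11110* on the other strand.

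*Tnfrsf1b* encodes TNFR2, a receptor without a death domain that signals through TRAF proteins and prefers membrane-bound TNF. Its gene is on the minus strand of chromosome 4 at 145213463 to 145246870. It measured 337, 333 and 333 FPKM in control and 458, 457 and 463 in CITED2-deficient BMDMs, with a narrow spread in both groups. The mean rose from 334 ± 2.19 to 459 ± 3.47 FPKM (SD, n = 3), a log2 fold change of 0.46 (SE 0.02, limma adjusted p = 5.44e-07). *Tnfrsf1a* encodes TNFR1, the death domain receptor that binds soluble TNF, on the plus strand of chromosome 6 at 125349362 to 125362484. It measured 242, 233 and 236 FPKM in control and 202, 202 and 198 in CITED2-deficient BMDMs. The groups did not overlap, and *Tnfrsf1a* fell by 0.24 on the log2 scale (SE 0.03, limma adjusted p = 0.000101). After median-ratio scaling these changes were 0.56 for *Tnfrsf1b* and -0.14 for *Tnfrsf1a* (limma adjusted p = 0.00331).

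The ratio of the 2 TNF receptors within a library does not depend on scaling between libraries. *Tnfrsf1b* over *Tnfrsf1a* was 1.39, 1.43 and 1.41 in control and 2.27, 2.26 and 2.35 in CITED2-deficient BMDMs. The mean ratio was 1.41 ± 0.0185 against 2.29 ± 0.0475 (SD, n = 3), a difference of 0.70 on the log2 scale. The size of each ratio depends on the transcript lengths used for FPKM, and the difference between groups does not. In control replicate 1, for example, *Tnfrsf1b* had 13331 fragments and *Tnfrsf1a* 3866. All 3 CITED2-deficient libraries were above all control libraries, and the exact permutation test (two-sided) gave p = 0.1, the smallest that 3 against 3 libraries allow. Since *Tnfrsf1b* was higher and *Tnfrsf1a* lower without overlap, this separation followed from the values above and is no further test. The ratio was not among the planned results. With each library left out in turn the difference stayed between 0.69 and 0.71.

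*Fas* encodes a death receptor, on the plus strand of chromosome 19 at 34290666 to 34327772. It measured 4.67, 3.29 and 5.22 FPKM in control and 2.86, 3.00 and 2.85 in CITED2-deficient BMDMs. The control values were widely spread, and the lowest of them, replicate 2, lay just above the CITED2-deficient values. *Fas* fell by 0.45 on the log2 scale (SE 0.14, limma adjusted p = 0.0226). The call was lost without control replicate 1 (adjusted p = 0.0720), control replicate 3 (0.0815), CITED2-deficient replicate 1 (0.0516) or CITED2-deficient replicate 3 (0.0616), with changes of -0.61 to -0.34 over the libraries left out. It was also lost without the filter (0.0782) and after median-ratio scaling (0.0512). The tested genes with the nearest profiles were *Metrn*, at a distance of 0.11, *A230072C01Rik* at 0.19 and *Pkmyt1* at 0.20. Their log2 fold changes of -0.44, -0.40 and -0.41 again lie near that of *Fas* because of this choice. *Tnfrsf14* encodes HVEM, the receptor of LIGHT, on the minus strand of chromosome 4 at 154921933 to 154928563. It measured 50.8, 50.3 and 45.1 FPKM in control and 39.0, 46.5 and 44.3 in CITED2-deficient BMDMs, with overlapping groups. Its log2 fold change of -0.17 (SE 0.07, limma adjusted p = 0.0702) did not pass the threshold, which it passed without control replicate 3 (-0.22, adjusted p = 0.0365) or CITED2-deficient replicate 2 (-0.22, adjusted p = 0.0311).

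**Figure D2:**
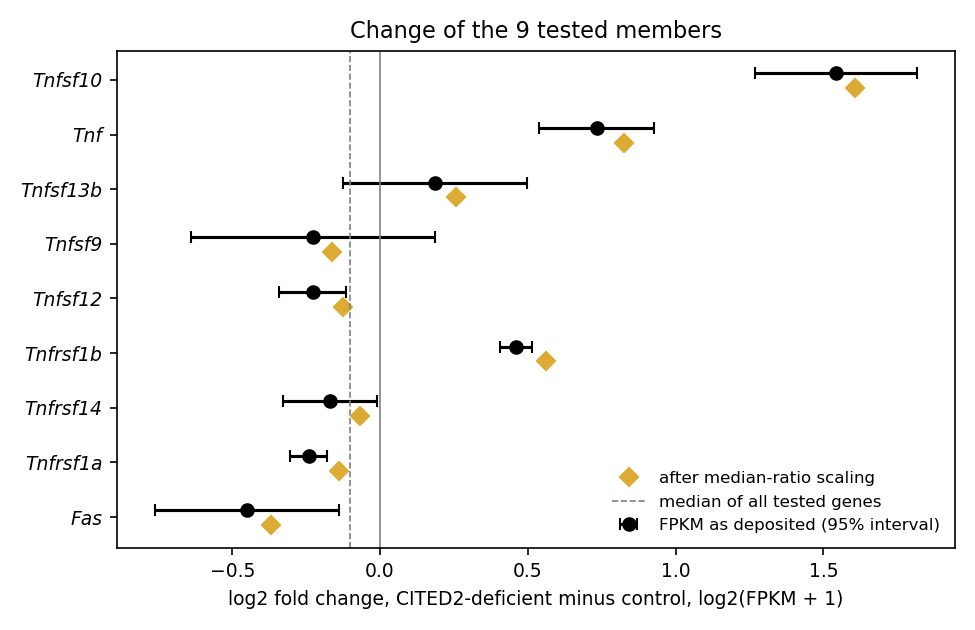
Log2 fold change of the 9 tested members, CITED2-deficient minus control, on the log2(FPKM + 1) scale, with points for FPKM as deposited, bars for the 95% interval, diamonds for values after median-ratio scaling and a dashed line for the median of all tested genes at -0.10. *Tnfsf10*, *Tnf* and *Tnfrsf1b* lie to the right of 0 under both scalings, and the scaling moves the lower members toward 0.

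The partners of these members moved in both directions. TRAIL acts on the death receptor encoded by *Tnfrsf10b*, and OPG, encoded by *Tnfrsf11b*, is a soluble decoy for it. *Tnfrsf10b* measured 0.796, 0.771 and 0.953 FPKM in control and 4.01, 3.31 and 3.49 in CITED2-deficient BMDMs. Like its ligand it passed the filter only through the CITED2-deficient group, and it rose with a log2 fold change of 1.32 (SE 0.12, limma adjusted p = 1.93e-05). Its ratio to *Tnfsf10* was 0.915 ± 0.245 in control and 0.786 ± 0.174 in CITED2-deficient BMDMs (SD, n = 3), and the groups overlapped (exact permutation p = 0.6, two-sided). *Tnfrsf11b* was below the filter, with 7 to 13 fragments per control library and 70 to 117 per CITED2-deficient library. Without the filter its log2 fold change was 1.02 (limma adjusted p = 0.000723). It measured 1.56, 1.10 and 1.59 FPKM in CITED2-deficient replicates 1, 2 and 3. Over the same libraries the summed stromal markers were highest in replicate 1, and the stromal marker *Dcn* measured 6.83, 6.18 and 7.53 FPKM. OPG is also made by stromal cells, and their part in this rise was not tested.

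FN14, the receptor of TWEAK, is encoded by *Tnfrsf12a*, which measured 11.8, 11.7 and 11.8 FPKM in control and 25.3, 19.8 and 22.0 in CITED2-deficient BMDMs. It rose with a log2 fold change of 0.87 (SE 0.08, limma adjusted p = 2.50e-05), whereas its ligand did not rise. The ratio of *Tnfrsf12a* to *Tnfsf12* was 0.269 ± 0.0159 in control and 0.600 ± 0.0622 in CITED2-deficient BMDMs (SD, n = 3, exact permutation p = 0.1, two-sided, the smallest possible). Here too both genes were separated in opposite directions, so the separation of the ratio followed from them. *Tnfrsf12a* was highest in CITED2-deficient replicate 1, as was the sum of the stromal markers, and without that library its log2 fold change was 0.78. TACI, encoded by *Tnfrsf13b*, binds BAFF and APRIL. It measured 38.1, 35.7 and 37.0 FPKM in control and 21.9, 21.0 and 17.1 in CITED2-deficient BMDMs, and it fell by 0.86 on the log2 scale (SE 0.08, limma adjusted p = 3.03e-05). The other BAFF receptors *Tnfrsf13c* and *Tnfrsf17* had at most 11 fragments in any library, so TACI was the BAFF receptor with the most transcript in these cells. *Tnfsf13*, which encodes APRIL and lies next to *Tnfsf12*, measured 5.75 ± 0.613 and 6.64 ± 0.412 FPKM (SD, n = 3). Its log2 fold change of 0.18 (limma adjusted p = 0.124) did not pass the threshold, which it passed after median-ratio scaling (0.27, adjusted p = 0.0329). *Tnfsf13* lies wholly inside *Tnfsfm13* on the same strand and inside *Tnfsf13os* on the other strand, so its level is uncertain in the same way as that of *Tnfsf12*.

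*Ltbr* encodes the receptor of lymphotoxin β and LIGHT and measured 104 ± 3.49 and 103 ± 2.27 FPKM (SD, n = 3). Its log2 fold change was -0.01 (95% interval -0.10 to 0.07), and its sign changed with scaling. *Tnfsf14*, which encodes LIGHT, was below the filter at 1.02 ± 0.0885 and 0.900 ± 0.0596 FPKM. The receptor of the *Tnfsf9* product, *Tnfrsf9*, had 1 to 6 fragments per control library and 9 to 11 per CITED2-deficient library. *Fasl*, the ligand of FAS, was not among the genes of the expression table, so it could not be analysed here.

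**Figure D3:**
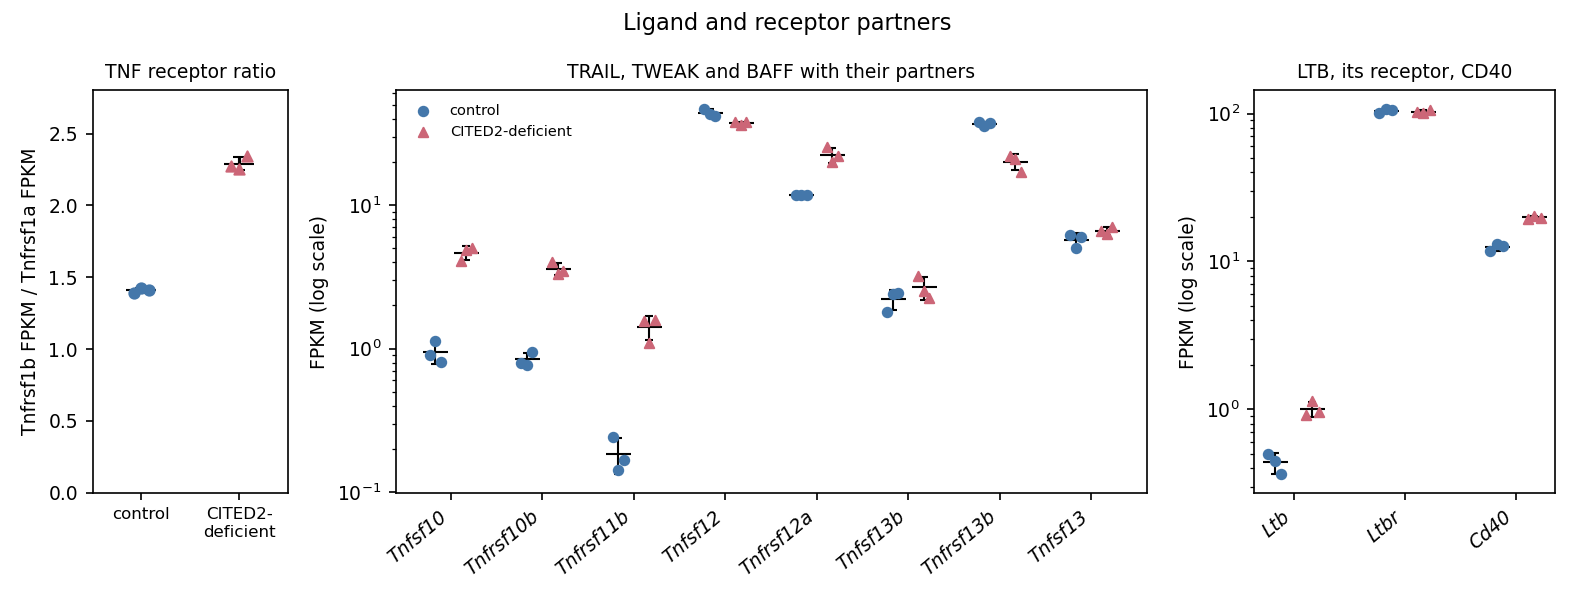
Left, FPKM of *Tnfrsf1b* over that of *Tnfrsf1a* in each library, on an axis from 0. Middle and right, FPKM on a log scale of the genes for TRAIL, TWEAK, BAFF and lymphotoxin β with their partners and *Cd40*. Circles are control and triangles CITED2-deficient libraries, with mean ± SD as black bars. The receptor ratio went from 1.41 to 2.29, *Tnfsf10* and *Tnfrsf10b* both lay higher, and *Tnfrsf12a* and *Tnfsf12* moved apart.

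Of 23 other receptor genes of the superfamily in the table, 11 were tested, of which 5 rose, 2 fell and 4 did not pass the threshold, with a median log2 fold change of 0.15. Over all tested genes 16.7% rose and 34.6% fell. *Tnfrsf10b*, counted among the 5, passed the filter only through the CITED2-deficient group. After median-ratio scaling 7 of the 11 were higher and 2 lower, against 23.1% and 21.3% of all tested genes. Beside *Tnfrsf10b* and *Tnfrsf12a*, the genes that rose were *Cd40*, the receptor through which T cells activate macrophages, *Tnfrsf23*, a decoy receptor of TRAIL, and *Tnfrsf26*, its close relative on chromosome 7. *Cd40* rose from 12.5 to 19.8 FPKM (log2 fold change 0.63, limma adjusted p = 2.10e-05), and the log2 fold changes of *Tnfrsf26* and *Tnfrsf23* were 0.32 and 0.27. *Tnfrsf23* lost its call without control replicate 2 (limma adjusted p = 0.0643), CITED2-deficient replicate 1 (0.0713) or CITED2-deficient replicate 2 (0.0617), and *Tnfrsf26* without CITED2-deficient replicate 3 (0.0552). Besides *Tnfrsf13b*, *Relt* fell, from 5.46 to 2.95 FPKM (log2 fold change -0.71, limma adjusted p = 0.00125). Of 9 other ligand genes in the table only *Tnfsf13* was tested, and 8 were below the filter. Limma therefore called 0 of 1, with 0 at an unadjusted p under 0.05. Limma-voom on genes with at least 10 fragments tested all 9 and called 2 higher and 0 lower. In that setting 39.0% of 17475 genes were called, 25.0% lower and the rest higher.

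The receptors hand their signal to adaptors, ubiquitin ligases and kinases. Of 38 such genes 37 were tested, and 13 rose, 11 fell and 13 did not pass the threshold, with a median log2 fold change of 0.0043 against -0.10 over all tested genes, of which 16.7% rose and 34.6% fell. The largest rises were in *Daxx*, which encodes an adaptor that binds FAS, and *Mlkl*, which encodes the executor of necroptosis. *Daxx* measured 45.6, 44.8 and 50.2 FPKM in control and 137, 150 and 148 in CITED2-deficient BMDMs (log2 fold change 1.61, limma adjusted p = 2.29e-08). *Mlkl* went from 8.12 ± 0.825 to 23.4 ± 2.42 FPKM (SD, n = 3, log2 fold change 1.42, limma adjusted p = 2.13e-06). *Traf1*, an adaptor bound by TNFR2, rose with a log2 fold change of 0.87, *Rnf31*, the catalytic subunit of the linear ubiquitin ligase, with 0.74, and *Tnip1*, which binds the ubiquitin-editing enzyme that limits NF-κB, with 0.69. These 5 kept their calls under every alternative run for them.

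The falls among the signaling genes were smaller. The 5 largest were in *Traf5* (-0.34), the kinase genes *Map3k5* (-0.30) and *Map3k14* (-0.25), the kinase partner *Tab1* (-0.26) and *Ikbkg* (-0.25), which encodes the regulatory subunit of the IκB kinase. After median-ratio scaling 16 signaling genes were higher and 1 lower, against 23.1% and 21.3% of all tested genes, and that 1 was *Ikbkg* (limma adjusted p = 0.00131 as deposited). Of the 5, only *Ikbkg* kept its call under every alternative run for it. With 1 library left out, *Traf5* missed the threshold without control replicates 2 or 3 or CITED2-deficient replicates 1 or 3 (limma adjusted p up to 0.132). *Tab1* missed it without control replicate 1 or CITED2-deficient replicates 2 or 3 (up to 0.0824), and *Map3k5* without control replicate 3 or CITED2-deficient replicate 2 (up to 0.0611). The number of falls was 11 with all libraries, 6 without control replicate 3 and 7 without CITED2-deficient replicate 1.

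The amount of TNF that leaves the cell also depends on shedding and on the decay of its mRNA. Of 14 genes for these steps all were tested, and 5 rose, 5 fell and 4 did not pass the threshold, with a median log2 fold change of 0.00025, beside 51.3% called of all tested genes, 16.7% higher and 34.6% lower. *Adam17* encodes the protease that releases TNF and also cuts both TNF receptors, and it rose from 135 ± 1.29 to 159 ± 5.22 FPKM (SD, n = 3, log2 fold change 0.23, limma adjusted p = 0.000324). Of its 2 iRhom partners *Rhbdf2* rose (0.23) and *Rhbdf1*, at a lower level, fell (-0.49). *Furin*, which encodes the protease that processes the ADAM17 precursor, fell from 75.5 ± 1.41 to 44.9 ± 3.40 FPKM (log2 fold change -0.74, limma adjusted p = 4.94e-06). *Timp3*, which encodes an inhibitor of ADAM17, measured 3.58, 2.44 and 3.45 FPKM in control and 35.7, 14.1 and 13.2 in CITED2-deficient BMDMs (log2 fold change 2.27, limma adjusted p = 0.000323). CITED2-deficient replicate 1, with the highest *Timp3*, also had the highest sum of stromal markers, and without it the *Timp3* change was 1.83. Among genes for factors that bind *Tnf* mRNA and its like, *Zfp36* (0.23) and *Zc3h12a* (0.21) rose and *Zfp36l1* (-0.45) and *Tia1* (-0.30) fell. *Mapkapk2*, which encodes a kinase that stabilizes *Tnf* mRNA, fell (-0.27).

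**Figure D4:**
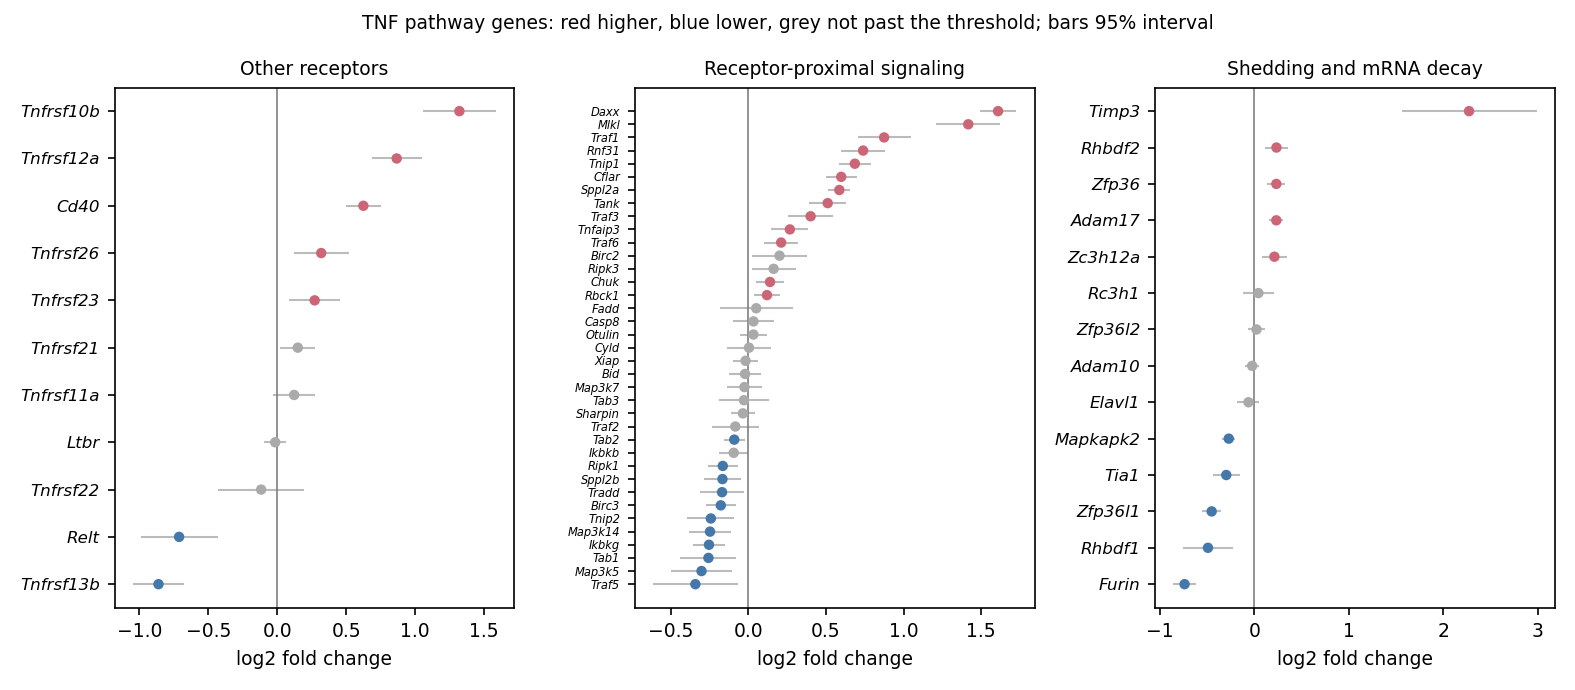
Log2 fold change, CITED2-deficient minus control, on the log2(FPKM + 1) scale with 95% intervals for the tested genes among other receptors (left), receptor-proximal signaling genes (middle) and regulators of shedding and mRNA decay (right). Red marks genes past the threshold and higher, blue past it and lower, and grey the rest. The largest rises (*Timp3*, *Daxx*, *Mlkl*, *Tnfrsf10b*) exceed the largest falls, and after median-ratio scaling 1 of the 11 signaling genes lower here was still called.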

How the data were processed

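RNA of BMDMs from *Lyz2cre* (n = 3) and *Cited2 fl/fl:Lyz2cre* (n = 3) mice was sequenced from stranded libraries after removal of ribosomal RNA. The authors mapped reads to mm10 with STAR and deposited FPKM per gene and library from Cuffdiff. The sources used here name neither tool versions nor the strand setting of the counting. Each library has its own column, and 0 other columns of sample values were left unused. FPKM are scaled to the total fragments of each library, so a few strong genes can shift the rest.

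The table was fitted with limma 3.58.1 in R 4.3.3 on log2(FPKM + 1) with a variance trend, for genes that averaged 1 FPKM or more, with Benjamini-Hochberg adjustment and a threshold of 0.05. FPKM are not counts, so this replaced the test of the study. Fragments were recovered with the mean transcript lengths of GENCODE vM21 (22239 genes matched, 96.1% of them within 0.02 of whole numbers in all 6 libraries) and were used for depth and for limma-voom. The fit was tested on simulated data. Ratios within libraries were compared with exact permutation tests.

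The members and gene lists were chosen with earlier results of these data known. Named genes were all members, *Cited2*, ligand and receptor partners, up to 5 largest rises and 5 largest falls past the threshold in each other list, and the 3 nearest profiles of the members that rose and fell most. Sample numbers did not pair the libraries. Deviations of same-numbered libraries from their group means correlated at 0.0138, 0.00784 and 0.0402, and the labels name no shared litter or day, so the fit has no replicate block. Alternatives were other pseudocounts, filters, scalings, variance models and sample weights, a fold threshold, the replicate block, recovered fragments and each library left out.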

Additional observations from a re-analysis of the deposited data

How the results depend on the processing

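Among the members, *Tnf*, *Tnfsf10*, *Tnfrsf1a* and *Tnfrsf1b* kept direction and call under every alternative in which they were tested, except that a fold change of at least 1.5 as well removed the calls of *Tnfrsf1a* and *Tnfrsf1b*. Members higher numbered 3, except 4 without the filter and with limma-voom at 10 fragments, where *Ltb* was tested, and 2 at a mean FPKM of at least 5, where *Tnfsf10* was not tested, and with the fold change of at least 1.5. Members lower went from 3 to 1 after median-ratio scaling and to 0 with a fold change of at least 1.5 as well, and were 2 to 4 with single libraries left out. *Tnfsf12* was -0.13 after median-ratio scaling. *Tnfrsf14* passed the threshold with limma-voom on recovered fragments (-0.18), and ranged from -0.22 to -0.098 with single libraries left out. *Fas* missed it without the filter (-0.45) and after median-ratio scaling (-0.37), and ranged from -0.61 to -0.34 with libraries left out. *Ltb* was tested only without the filter (0.48) and by limma-voom with at least 10 fragments (1.15). Other ligands higher went from 0 to 2 without the filter and with limma-voom at 10 fragments, where all 9 were tested. They went to 1 after quantile normalization and to 1 after median-ratio scaling, where only *Tnfsf13* was tested. Of all genes, 9.9% of 22248 were higher without the filter, 2265 of 11687 after quantile normalization and 23.1% after median-ratio scaling. Limma-voom at 10 fragments called 39.0% of 17475 genes, 25.0% lower and the rest higher. Other receptors higher went from 5 of 11 tested to 8 with limma-voom at 10 fragments. In that setting all of the 23 except *Tnfrsf25* and *Ngfr* were tested, so the 2 counts have different bases. Other receptors lower went from 2 to 1 at a mean FPKM of at least 5, where *Relt* was not tested. Signaling genes lower went from 11 to 6 without the filter, 6 after quantile normalization, 1 after median-ratio scaling and 6 without the variance trend, and were 6 to 9 with libraries left out. Over all tested genes, a fold change of at least 1.5 left 860 higher and 689 lower, and median-ratio scaling left 2490 lower of 4044. *Ltbr* ranged from -0.041 to 0.0059 with single libraries left out, and changed sign after quantile normalization (0.0054), after median-ratio scaling (0.088), without control replicate 2 (0.0059) and without CITED2-deficient replicate 2 (0.0011). The causes of these changes were not tested. The replicate block left 1895 higher and 3813 lower over all genes, and it changed the call of no member. Depth limits *Ltb*, *Tnfsf9* and *Lta*, with under 60 fragments in every library.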

Other observations

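Several superfamily genes lay below the filter on low values and were singled out after their values were seen. *Tnfsf8*, which encodes the ligand of CD30, had 5, 4 and 5 fragments in control and 112, 79 and 90 in CITED2-deficient BMDMs. Without the filter its log2 fold change was 0.90 (limma adjusted p = 0.000224). *Tnfsf15*, which encodes TL1A and lies beside *Tnfsf8* on chromosome 4, had 6, 8 and 9 fragments in control and 39, 59 and 58 in CITED2-deficient BMDMs (log2 fold change 0.53, limma adjusted p = 0.00441 without the filter). *Eda2r*, a receptor of ectodysplasin, had 11, 5 and 10 fragments in control and 34, 30 and 64 in CITED2-deficient BMDMs (0.53, limma adjusted p = 0.0201 without the filter). Each of these 3 had groups that did not overlap, at levels that stayed near or under 1 FPKM. Without the filter 26.2% of all 22248 genes were called, 9.9% higher and 16.3% lower, and 59.9% of the genes above the filter had groups that did not overlap. In the other direction, *Tnfrsf4* was lower without overlap, at 0.929 FPKM in control and 0.602 in CITED2-deficient BMDMs (limma adjusted p = 0.0892 without the filter). *Tnfsf14*, given above, was also lower without overlap. *Tnfrsf19* had 1, 2 and 4 fragments in control and 49, 8 and 4 in CITED2-deficient BMDMs. Its rise therefore rests on CITED2-deficient replicate 1, the library with the highest sum of stromal markers.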
